A study of Schizosaccharomyces pombe with 2 samples.

Results

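Fission yeast (Schizosaccharomyces pombe) carries many annotated long non-coding RNAs (lncRNAs), and many of them lie on the strand opposite a protein-coding gene. The ones described here are the antisense lncRNAs with a high serial number in the SPNCRNA naming scheme, 2000 or more, which stand for the later additions to the annotation. A member had to overlap at least 1 nt of a coding feature on the opposite strand and no coding feature on its own strand, and lncRNAs overlapping a snoRNA feature were left out. By this rule, which uses positions and names and no read count, 4620 of the 12684 features of the deposited table were members, out of 5768 SPNCRNA features with a number of 2000 or more and 7213 in all. The coding feature with the longest overlap is called the sense gene of a member.

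The RNA came from 1 group of vegetative haploid h- cells labelled wild type, carrying leu1-32 and pat1-L95G::kanR and grown in minimal medium, with 2 biological replicates. Both libraries share the pat1 allele, an altered form of the gene for Pat1, the kinase that holds back meiosis. Total RNA was depleted of rRNA, tailed in vitro with poly(A) and sequenced directly on nanopores. Each read thus comes from a native RNA, whole or in part, with its strand. The series was made to list the RNA species of the mamRNA-U14 locus, and the antisense lncRNAs were measured in the same libraries. These held 12871729 counts in replicate 1 and 12579850 in replicate 2. Features of rRNA still took most of the counts, and 5176895 and 4748138 were left without rRNA. With 1 group there is no contrast of conditions, so that each test below compares only these libraries with each other, and each mean ± SD rests on n = 2.

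Antisense transcription starts inside or downstream of a gene and runs against it. In fission yeast the factors that keep such RNAs low include nuclear RNA decay by the exosome, RNA interference and chromatin factors. Some are made when a gene is silent and fall when it is induced, and antisense RNAs opposite meiotic genes are a well known class. Mmi1, the RNA-binding protein of the YTH family that marks meiotic transcripts for decay in vegetative cells, recognises the hexamer TNAAAC.

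The lncRNAs that led the list by level or by ratio to their sense gene are shown first, because the results below turn on them. Each line gives the first 120 bases of the lncRNA strand, 5′ to 3′, from RefSeq assembly ASM294v3, with copies of TNAAAC in capitals.
SPNCRNA.4264: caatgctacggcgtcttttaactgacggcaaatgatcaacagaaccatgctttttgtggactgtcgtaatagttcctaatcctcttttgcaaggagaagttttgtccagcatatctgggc
SPNCRNA.6865: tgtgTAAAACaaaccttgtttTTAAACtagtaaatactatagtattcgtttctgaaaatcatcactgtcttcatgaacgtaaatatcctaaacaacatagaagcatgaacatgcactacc
SPNCRNA.7266: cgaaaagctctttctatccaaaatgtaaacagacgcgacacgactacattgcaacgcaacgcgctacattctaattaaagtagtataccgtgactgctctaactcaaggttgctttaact
SPNCRNA.5656: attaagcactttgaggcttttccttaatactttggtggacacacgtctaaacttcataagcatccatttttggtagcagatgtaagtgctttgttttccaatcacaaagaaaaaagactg
SPNCRNA.2704: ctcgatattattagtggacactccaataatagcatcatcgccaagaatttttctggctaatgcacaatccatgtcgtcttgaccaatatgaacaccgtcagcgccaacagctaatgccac
SPNCRNA.3719: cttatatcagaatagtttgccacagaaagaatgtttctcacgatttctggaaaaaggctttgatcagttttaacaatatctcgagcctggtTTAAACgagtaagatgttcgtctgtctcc
SPNCRNA.5660: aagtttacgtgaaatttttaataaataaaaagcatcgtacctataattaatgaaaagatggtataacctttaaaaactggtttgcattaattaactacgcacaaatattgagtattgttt
The windows lie on chromosome I at 5040615 to 5040734 (plus strand) for SPNCRNA.4264, at 1590328 to 1590447 (minus) for SPNCRNA.2704 and at 3857662 to 3857781 (plus) for SPNCRNA.3719. On chromosome II they lie at 2434725 to 2434844 (minus) for SPNCRNA.5656 and at 2442514 to 2442633 (minus) for SPNCRNA.5660. On chromosome III they lie at 466250 to 466369 (plus) for SPNCRNA.6865 and at 1213887 to 1214006 (minus) for SPNCRNA.7266. The hexamer stood 2 times in the window of SPNCRNA.6865, 1 time in that of SPNCRNA.3719 and in none of the other windows. Searched on the lncRNA strand alone, with overlapping copies counted, it was present in the first 120 bases of 20.8% of all members, of 21.7% of all SPNCRNA features and of 20.8% of coding features. Over whole spans it occurred 1.94 times per kb on the members' own strand and 1.74 times per kb on the other strand, beside 2.00 and 1.89 for all SPNCRNA features and 1.77 and 2.02 for coding features. The share of features with at least 1 copy, 67.7% of members, 69.7% of SPNCRNA features and 90.7% of coding features, moves with span length and is given as a description.

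Most of the later antisense lncRNAs were barely represented. At least 1 read was found for 2223 members in replicate 1 and for 2214 in replicate 2, and 1635 (35.4%) had a read in both. No read in either library was counted for 1818 members (39.4%), which at this depth allows up to 3 counts, or 0.233 CPM in replicate 1 and 0.238 CPM in replicate 2 (CPM, counts scaled to a library total of 1000000). Only 504 members (10.9%) reached 10 reads in both libraries together and 10 reached 100. The median member had 0 reads in each library, and 95% of members had 9 or fewer in each.

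Set against these, the antisense lncRNAs of the earlier annotation, with a number under 2000 and chosen by the same overlap rule, were detected more often. Of 756, 662 (87.6%) had reads in both libraries, 502 (66.4%) reached 10 reads and 67 reached 100. Their median was 9.5 reads in replicate 1 and 9 in replicate 2. Counted per kb of span, the median level was 0.0656 CPM per kb for the members and 0.540 CPM per kb for the earlier lncRNAs, beside 5.0 CPM per kb for coding features. In each library taken singly the median of the members was 0 CPM per kb, and that of the earlier lncRNAs was 0.577 and 0.559 CPM per kb. The groups differ in length too, with a median of 591 nt (200 to 7193) for members and 1310 nt for the earlier ones. Later-numbered lncRNAs with no coding overlap, 1131 in number and with a median length of 381 nt, were read in both libraries in 45.8% of cases and had a median of 0.171 CPM per kb.

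In total the members took 12236 reads in replicate 1 and 12438 in replicate 2, which is 0.0951% and 0.0989% of the library counts. Of the counts without rRNA it is 0.236% and 0.262%. A single lncRNA, SPNCRNA.4264, made up 22.3% and 24.2% of the member reads. Without it 9510 and 9428 reads were left for the other members. Their sense genes, 3065 different ones or 59.5% of the coding features, held 137 and 133 sense reads for each member read.

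**Figure D1:**
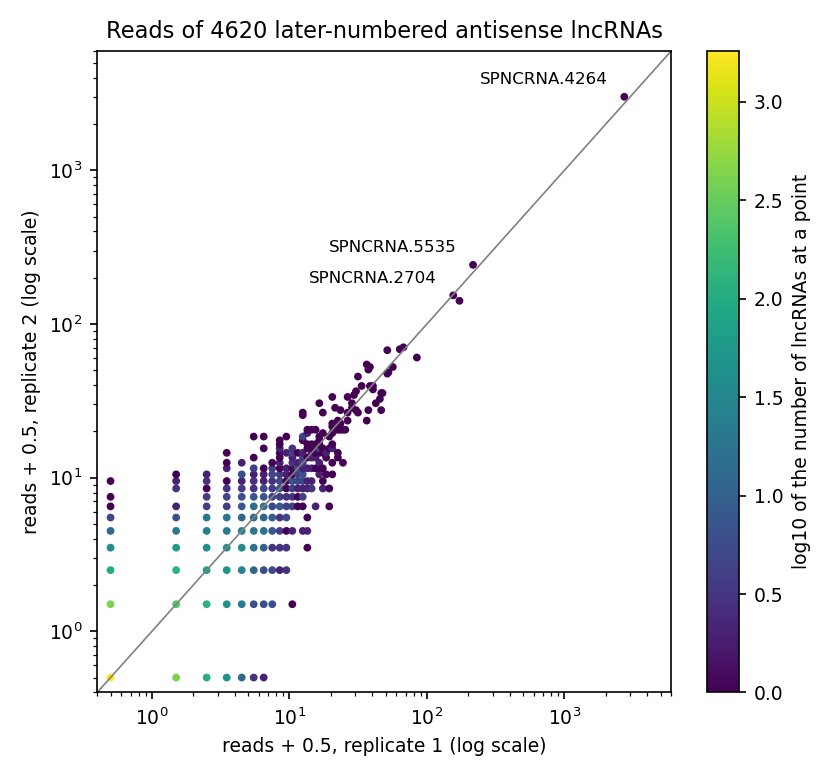
Reads of each of the 4620 later-numbered antisense lncRNAs in replicate 1 (horizontal) and replicate 2 (vertical), plus 0.5, on log axes, with the colour giving how many lncRNAs share a point and the line marking equal counts. The brightest point is the 1818 lncRNAs with 0 reads in both libraries, and SPNCRNA.4264 lies alone at 2726 and 3010 reads.

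The detected members were compared between the libraries by their counts. Of the 504 members with at least 10 reads, 1 differed between the libraries by a two-sided exact binomial test with Benjamini-Hochberg adjustment over all features, and 27 had an unadjusted p under 0.05. Over all 6752 features tested, 4.19% were called, but these were deeper, with a median of 188 reads in sum against 16.5 for the members, so that the shares are not on a par and few calls do not show that the libraries were alike. Of the members with at least 100 reads, 1 of 10 was called when the test was limited to features of that depth. Over all features of that depth, 310 of 4493 were called. SPNCRNA.4264 was the member called, with a log2 ratio of replicate 1 over replicate 2 of -0.18 and an adjusted p of 0.000193 from the binomial test, higher in replicate 2. The call was lost with TMM factors and was made again with DESeq2 size factors, with totals without rRNA, with no count minimum, with a minimum of 100 reads and by the chi-square test. The direction of the calls over all features moved with the scaling too: replicate 1 was the higher one in 51.9% of them by library totals, in 81.0% by TMM, in 80.8% by DESeq2 size factors and in 11.3% when rRNA was left out of the totals. Across these 504 members, Pearson's r of log2(CPM + 1) was 0.89 and Spearman's rho of CPM was 0.57, a description over lncRNAs that share the same libraries and mostly hold few reads.

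Whether a lncRNA lay wholly inside its sense gene or reached beyond it went with its detection. There were 2779 members inside the sense gene, with a median length of 450 nt, and 20.5% of them had reads in both libraries. Of the 1275 members overlapping head-to-head, that is sharing the 5′ end of the gene, 53.3% were read in both, and of the 403 overlapping tail-to-tail at the 3′ end 61.8%. The 163 members spanning the whole sense gene, at a median of 1900 nt, reached 82.8%. On the level per kb the order was the same, with medians of 0 for inside, 0.125 for head-to-head, 0.160 for tail-to-tail and 0.180 CPM per kb for spanning members. Those neighbouring medians lie close, and the values in the single libraries were 0.117 and 0.116 for head-to-head, 0.156 and 0.157 for tail-to-tail and 0.178 and 0.180 CPM per kb for spanning members. Among the earlier lncRNAs the share read in both libraries also was lowest inside the gene, at 72.4% of 145, and 88.4%, 93.8% and 94.4% in the other classes.

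**Figure D2:**
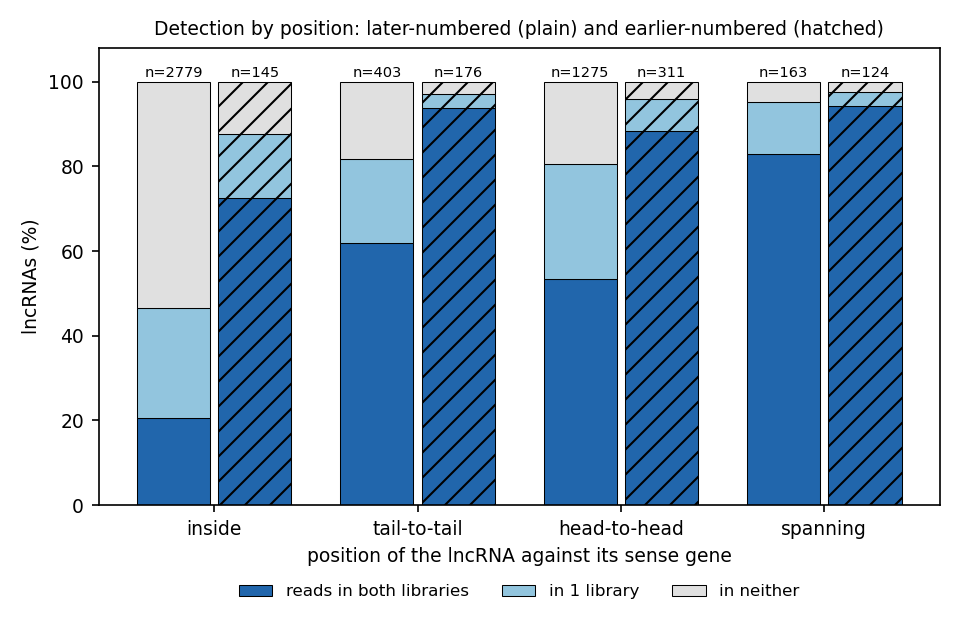
Percentage of antisense lncRNAs with reads in both libraries, in 1 library or in neither, by position against the sense gene, for the later-numbered (plain) and earlier-numbered (hatched) lncRNAs, with the number of lncRNAs above each bar. In the later group the dark share grows from 20.5% inside the gene to 82.8% for spanning lncRNAs, and in each class it is below that of the earlier group.

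Length moved with detection in the same way. With the members in 4 classes of length, split at 337, 591 and 1117 nt, 11.2%, 23.4%, 39.5% and 67.5% were read in both libraries from the shortest to the longest class. Per kb of span the classes lay closer, with upper quartiles of 0.154, 0.184, 0.190 and 0.214 CPM per kb in the same order. Their medians were 0, 0.0723, 0.0642 and 0.103 CPM per kb. The rank correlation of reads with length over the 4620 members was 0.51. Position and length are tied to each other here, and their separate parts were not tested.

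The second feature that moved with detection was a gene close by on the same strand. A member started within 250 nt after the end of a coding feature of its own strand in 617 cases. Of these, 52.0% were read in both libraries, against 32.8% of the other 4003. On the other side, 252 members ended within 250 nt before the start of such a feature, and 52.0% of them were read in both as well. Inside the sense gene, members starting this close after a coding feature were read in both in 37.6% of 340 cases, against 18.2% of the other 2439. The closer members were also longer, with medians of 798 against 570 nt over all members and 570 against 438 nt inside the gene. Members ending just before a feature had a median of 824.5 nt. Closeness and length are thus tied too, and their separate parts were not tested. For the 617 members that started after a gene, 55.7% were read in both where that gene held at least the median number of reads (288 in both libraries together). The share was 48.4% where it held fewer. The share was 61.5% within the first 50 nt and 45.4% between 200 and 250 nt. How a read covering adjoining features was counted is not stated. There were 67 same-strand pairs in which 1 feature lies inside another and both have reads. In all 67 the outer one held at least as many as the inner one in both libraries. The outer feature is the longer one and the pairs are nested, so this does not decide how reads over adjoining features were counted. The part of RNA running on from the gene ahead was not tested.

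The lncRNA and its sense gene were then set side by side as reads per kb of span. Division by span raises short lncRNAs against long genes, and whether it fits direct RNA reads was not tested. Most members stood far below their gene. Over the 4604 pairs with a read, the median log2 ratio of lncRNA to sense gene was -5.10, with a pseudocount of 0.5 reads, and was -5.08 in replicate 1 and -5.15 in replicate 2. The earlier lncRNAs had a median of -2.77 over 752 pairs, with -2.65 and -2.78 in the single libraries. For pairs with at least 10 antisense reads the medians were -3.17 for 504 members and -1.85 for 502 earlier lncRNAs. A level within 10-fold of the sense gene in both libraries was found for 13.3% of the members and for 54.9% of the earlier lncRNAs.

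The level of the lncRNA hardly followed that of the sense gene. With the members in 5 classes of equal size by the level of the sense gene, the median sense level was 1.45 CPM per kb in the lowest class and 29.5 CPM per kb in the highest. The median level of the lncRNA was 0.0795 CPM per kb in the lowest class and 0.0618 CPM per kb in the highest. The share read in both libraries was 39.8%, 37.9%, 34.8%, 32.0% and 32.4% from the lowest to the highest class. For members inside the gene alone it went from 28.6% to 14.4%. Median length was 641.5 nt in the lowest and 538.5 nt in the highest class, and 491.5 and 389.5 nt for members inside the gene. The part of length in these shares was not tested. Spearman's rho between the levels of lncRNA and sense gene was -0.036 over all members and -0.087 over those inside the gene. Over members with at least 10 reads it was 0.072. These values are a description in which the points share libraries and, in part, sense genes.

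**Figure D3:**
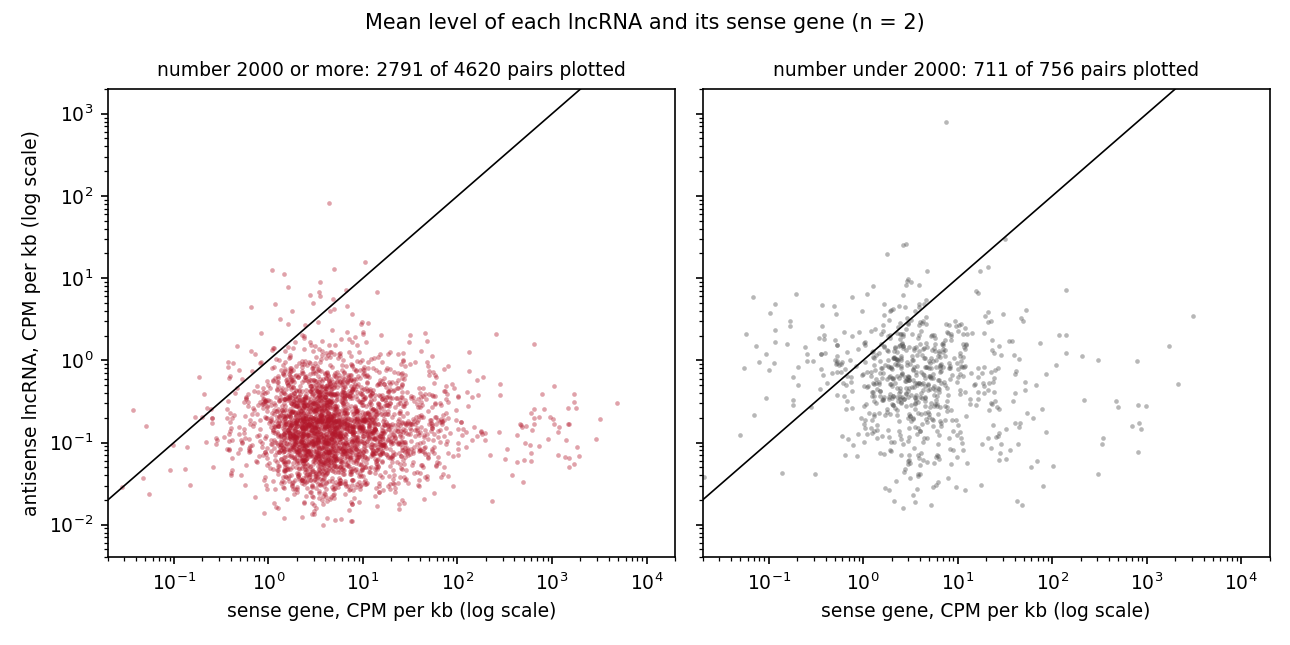
Mean level of each antisense lncRNA (vertical) and of its sense gene (horizontal), in CPM per kb on log axes, for later-numbered (left) and earlier-numbered (right) lncRNAs. Pairs with a mean of 0 on either axis are not drawn, and the line marks equal levels. The cloud of the later lncRNAs lies mostly below the line, with some points above it at low sense levels.

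**Figure D4:**
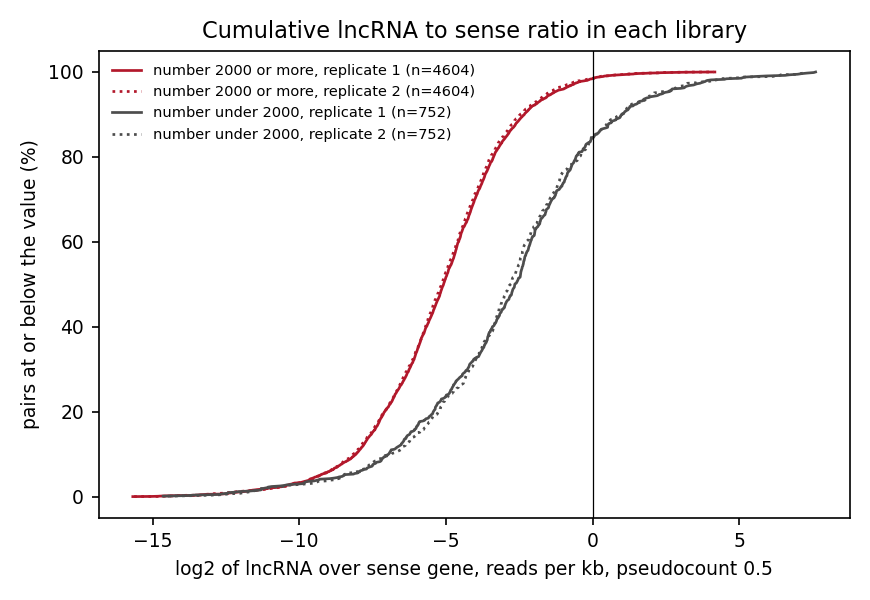
Cumulative percentage of pairs by the log2 ratio of lncRNA to sense gene, reads per kb with a pseudocount of 0.5, for each group and library. The curves of both libraries run together, with medians of -5.08 and -5.15 for the later and -2.65 and -2.78 for the earlier lncRNAs.

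In 42 of the 4604 pairs (0.912%) the lncRNA was above its sense gene per kb in both libraries, and in 33 more in a single library. Over all 5459 SPNCRNA pairs with a read the share was 3.44%, and among the earlier lncRNAs it was 101 of 752 (13.4%). Of the 42, 25 had at least 20 reads, 7 had 10 to 19 and 10 had fewer. In raw reads, with no division by length, 25 members stood above their sense gene in both libraries, and 19 of these were among the 42. Of the 42, 32 belonged to the class with the lowest sense level and 0 to the highest. The sense level is the denominator of the ratio that chose the 42, so this split follows largely from how they were chosen. With no coding feature of the same strand within 250 nt on either side, 30 of the 42 were left.

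SPNCRNA.4264 was the most abundant member by far. It runs over 2774 nt of chromosome I (5040615 to 5043388, plus strand), from inside set3, which encodes a putative histone H3 lysine methyltransferase, past its 5′ end to 3 nt of rlp24, a ribosome biogenesis gene. It held 2726 and 3010 reads, and set3 held 184 and 170. Per kb this made 81.3 ± 7.01 CPM for the lncRNA and 4.35 CPM for set3, an 18.7-fold difference. The share of antisense reads was 93.7% in replicate 1 (exact Clopper-Pearson 95% interval 92.7 to 94.5%) and 94.7% in replicate 2 (93.8 to 95.4%). rlp24, on the far side, had 364 and 376 reads, or 21.2 and 22.4 CPM per kb. The nearest coding features of its own strand were rrn10, whose end lies 6029 nt ahead of SPNCRNA.4264, and SPAC22E12.18, 11775 nt past its end.

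The overlap with set3 covered 2130 nt, of which 1867 nt were coding sequence, and 644 nt of the lncRNA lay outside set3. The counts do not say where in the span the reads fell. The next most abundant members had far fewer reads. SPNCRNA.5535, over 2900 nt opposite SPBC17G9.12c, a hydrolase gene, and cup1, held 216 and 242 reads against 69 and 58 for SPBC17G9.12c and 46 and 32 for cup1. Its level was 6.21 ± 0.599 CPM per kb, 2.26-fold that of SPBC17G9.12c.

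SPNCRNA.2704 gave a case in which the choice of the sense gene mattered. It lies opposite cnl2, which encodes a protein that localises to centromeres, over 834 nt, and opposite thi4, a thiamine biosynthesis gene, over 515 nt. It held 155 and 153 reads, against 20 and 26 for cnl2 and 1847 and 1957 for thi4. The lncRNA at 7.80 ± 0.0549 CPM per kb was thus 4.82-fold above cnl2, and below thi4 at 43.3 and 46.9 CPM per kb.

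Several short lncRNAs had fewer reads but were higher per kb. SPNCRNA.7266, 505 nt and tail-to-tail with arp6, the gene of an actin-like subunit of the Swr1 chromatin remodeller, held 84 and 60 reads against 25 and 39, a level of 11.2 ± 2.46 CPM per kb and 7.63-fold that of arp6. Its antisense share was 77.1% and 60.6%, and the difference between the libraries passed no threshold after adjustment (Fisher's exact test, p = 0.0111, adjusted p = 0.838). SPNCRNA.3719, 328 nt at the 5′ end of pta1, a subunit gene of the cleavage and polyadenylation factor, held 63 and 68 reads. At 15.7 ± 1.10 CPM per kb it was 1.48-fold above pta1, which had 338 and 344 reads over a longer span. It ends 228 nt ahead of mms19 on its own strand, with 216 and 238 reads.

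SPNCRNA.5660 sits opposite the 3′ end of ucp3, a GTPase-activating protein gene, with 216 of its 218 nt in the overlap and none of them coding. It held 42 and 30 reads, 12.95 ± 2.85 CPM per kb and 2.63-fold the level of ucp3. An annotated rRNA feature of 153 nt on the same strand, 66 nt upstream, held 42 and 32 reads. The counts of the lncRNA and of this rRNA feature were nearly equal in both libraries, and whether they are the same molecules was not tested.

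Other leading members stood directly behind a gene of their own strand. SPNCRNA.6865, 256 nt inside SPCC4G3.03, a WD40 repeat protein gene, held 46 and 35 reads against 29 and 30 and was 11.4-fold above it per kb. It begins 15 nt after coq5, a ubiquinone biosynthesis gene with 399 and 416 reads. SPNCRNA.3156, opposite rrp36, an rRNA processing gene, held 38 and 52 reads against 33 and 48, and begins 5 nt after tlg2, with 92 and 83 reads. SPNCRNA.3133, opposite ssr2, a gene for a subunit of the SWI/SNF and RSC remodellers, held 37 and 50 reads and begins 20 nt after SPAC23H3.11c, with 47 and 63.

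Such a position was also found for SPNCRNA.2102, inside the gamma-tubulin complex gene mod21, which held 15 and 16 reads against 30 and 40 and begins 82 nt after ndk1. SPNCRNA.2601 held 28 and 28 reads, begins 1 nt after SPAC57A10.08c and was the one of the 10 highest members that stayed below its sense gene, at 0.480-fold SPAC57A10.07. Among the 25 members above their gene with at least 20 reads, 6 started within 250 nt after such a gene and 17 had no coding feature of their strand this close on either side. In that last group were SPNCRNA.3286, 688 nt wholly within the coding sequence of ltv1, a ribosome biogenesis gene, with 51 and 67 reads against 80 and 75, and SPNCRNA.2367, 630 nt inside taf1, a TFIID subunit gene, with 29 and 34 reads against 66 and 83. The gene ahead of SPNCRNA.3286 on its strand, 348 nt away, was the ribosomal protein gene rpl4102, with 7565 and 9923 reads. SPNCRNA.4066 inside til1, a gene of the tRNA(Ile)-lysidine synthetase family, held 12 and 8 reads against 13 and 12, and SPNCRNA.6015 opposite mis20 held 30 and 27 against 10 and 17, which made them 3.20-fold and 2.56-fold above their genes per kb.

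**Figure D5:**
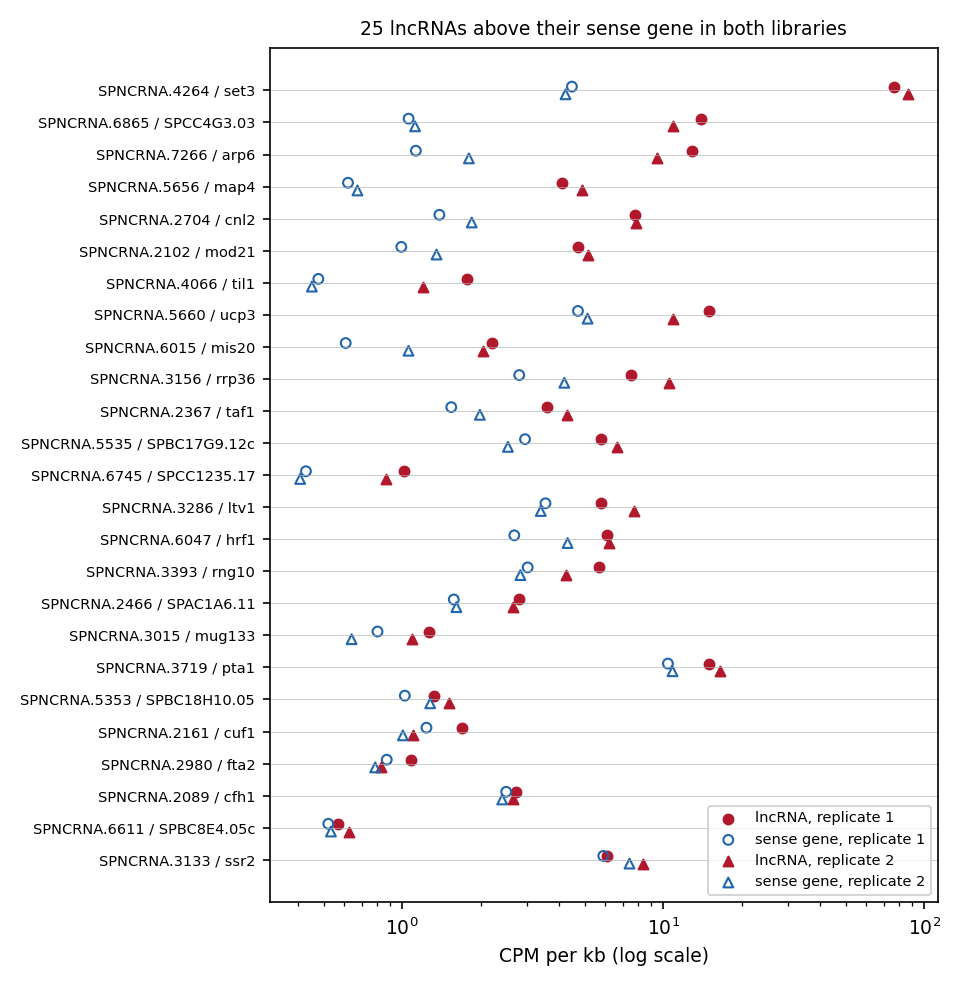
Level in CPM per kb (log scale) of the 25 lncRNAs with at least 20 reads that stood above their sense gene in both libraries (filled) and of the sense gene (open), with circles for replicate 1 and triangles for replicate 2. The distance between filled and open symbols shrinks from SPNCRNA.4264 and set3 at the top to SPNCRNA.3133 and ssr2 at the bottom, where 6.06 and 8.39 CPM per kb stand against 5.89 and 7.43.

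Genes of meiosis and mating supplied a number of these pairs. Opposite 65 of 162 meiotic and sporulation genes lay 93 members, of which 33 were read in both libraries. No read was found for 37 (39.8%, against 39.4% of all members), and 15 had at least 10 (16.1%, against 10.9%). The lncRNA stood above the gene in 6 of these 93, and in 42 of all 4604 pairs. Among the 6 were SPNCRNA.4289 inside mcp3, with only 2 and 3 reads, and SPNCRNA.6929 opposite spo13, with 3 and 3. The median lncRNA level was 0.0760 CPM per kb, near the 0.0656 CPM per kb of all members. The genes of this list had a median of 1.24 CPM per kb against 5.0 CPM per kb for all coding features, and the median log2 ratio of the pairs was -3.50 against -5.10 for all members.

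SPNCRNA.3015 spans mug133, a gene named for its increase in meiosis, and held 31 and 26 reads against 18 and 14, 1.63-fold the sense level per kb. On its own strand, 112 nt upstream, lies SPNCRNA.808 with 35713 and 31243 reads. SPNCRNA.2784 opposite rec25, a gene of the linear elements of meiotic chromosomes, held 6 and 5 reads against 9 and 16, 2.19-fold per kb. SPNCRNA.2429 inside meu13, which encodes a homologous-pairing protein, held 6 and 4 reads against 17 and 9, 1.20-fold per kb. SPNCRNA.7038 opposite mug4 held 8 and 8 against 7 and 7 and was nearly level with it, at 1.02-fold per kb. Of the 15 members of this list with at least 10 reads, these 4 were above their gene in both libraries, SPNCRNA.7404 opposite mug42 in a single one, and 10 were below in both, at 0.0881-fold to 0.459-fold the sense level. SPNCRNA.2787 inside mde10, an ADAM family peptidase gene, held 6 and 7 reads against 66 and 94, and SPNCRNA.4358 opposite the meiotic kinase gene mek1 held 5 and 6 against 18 and 13. The counts are small, and the exact 95% intervals of the antisense share of SPNCRNA.2784 were 16.3 to 67.7% in replicate 1 and 8.22 to 47.2% in replicate 2.

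Among the mating genes, map4 held a pair of members. Inside map4, which encodes a cell agglutination protein of mating, lay SPNCRNA.5656 with 12 and 14 reads and SPNCRNA.5657 with 6 and 4, against 32 and 34 for map4 over a span of 4009 nt. SPNCRNA.5656 was 6.93-fold above map4 per kb, at 4.49 ± 0.560 CPM per kb, although its share of the reads was 27.3% (15.0 to 42.8%) and 29.2% (17.0 to 44.1%). Neither lncRNA overlaps the coding sequence of map4. In all, 6 members lay opposite 4 of 16 mating genes, 4 of them were read in both libraries and 3 had at least 10 reads, beside 35.4% and 10.9% of all members. Opposite mam1, the gene of the M-factor exporter, SPNCRNA.5728 held 7 and 5 reads against 567 and 577.

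The opposite end of the range was formed by the most abundant genes. Opposite thi2, a thiazole biosynthesis gene with 44824 and 50244 reads, SPNCRNA.6357 held 4 and 2. Opposite tef101, a gene for translation elongation factor EF-1 alpha with 31468 and 29152 reads, SPNCRNA.6769 held 1 and 0. SPNCRNA.4334, which shares 5 nt with the phosphoglycerate mutase gene gpm1 (31037 and 28327 reads), held 0 and 1. SPNCRNA.5486 spans the ribosomal protein gene rps21 and held 6 and 5 reads against 29185 and 27295, an antisense share of 0.0206% and 0.0183%. SPNCRNA.6456 spans pgk1, the phosphoglycerate kinase gene, and held 5 and 13 reads against 21713 and 20748.

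The same was counted for abundant genes with a member wholly inside them. Inside the 20 most abundant sense genes that hold a member wholly within their span lay 22 members, and 16 of them had no read. The other 6 brought the sum to 8 reads in both libraries together, against 412091 sense reads, or 19.4 antisense reads per 1000000 sense reads. The members cover only a stretch of each gene, while the sense reads are those of the whole gene. No single member there had more than 2 reads. The strand setting of the counting is not stated, and that reads were assigned by strand was taken from these counts.

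The members opposite genes of growth are given beside the shares over all members, 39.4% with no read, 10.9% with at least 10 and 0.912% of pairs above the sense gene. Opposite 55 of 131 ribosomal protein genes lay 61 members, of which 28 (45.9%) had no read, 3 (4.92%) had at least 10 and 0 stood above their gene. Their median lncRNA level was 0.0582 CPM per kb, while the genes had a median of 1037 CPM per kb, and the median log2 ratio was -12.32. The leading one, SPNCRNA.3515 opposite rps403, held 11 and 7 reads against 8600 and 7741. For 17 members opposite glycolysis and fermentation genes the median log2 ratio was -10.36, with 9 members (52.9%) at 0 reads, and for 7 members opposite translation factor genes it was -10.41, with 5 (71.4%) at 0 reads.

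By median log2 ratio, the members opposite histone, stress and nutrient genes lay between the growth lists and all members. The median was -8.27 for histone genes and -7.58 for nutrient-regulated genes. The 4 members opposite histone genes all had a read, led by SPNCRNA.5147 with 12 and 10 reads against 1708 and 1591 for hhf2, a histone H4 gene. It ends 82 nt ahead of hht2, a histone H3 gene on its own strand with 2511 and 2502 reads. The 15 members opposite heat shock and stress genes had a median log2 ratio of -7.50, and SPNCRNA.3030 inside the Hsp70 gene ssa1 held 9 and 14 reads against 557 and 500. Of 27 members opposite nutrient-regulated genes 14 (51.9%, against 39.4% of all members) had no read. Yet 5 (18.5%, against 10.9%) had at least 10 reads, and 12 were read in both libraries, beside 35.4% of all members. SPNCRNA.3584 opposite bsu1, a vitamin B6 transporter gene, led this list with 36 and 54 reads against 982 and 1130.

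RNA decay genes and repeated gene families completed the lists. The 33 members opposite 18 of 21 genes of RNA decay and processing had a median log2 ratio of -4.94, and SPNCRNA.6385 opposite the decapping gene dcp1 led with 12 and 14 reads against 87 and 106. Opposite Tf2 retrotransposons and wtf genes lay 57 members, with a median log2 ratio of -2.13 and a median sense level of 0.839 CPM per kb. SPNCRNA.7483 opposite wtf16, a meiotic drive suppressor gene, stood above it with 8 and 6 reads against 3 and 4. These families have near-identical copies, and how reads mapping to several copies were counted is not given in the sources used here, so their values are uncertain.

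The balance between lncRNA and sense gene was compared between the libraries. Of 501 member pairs with at least 10 reads on each side, none had an antisense share that differed by Fisher's exact test with Benjamini-Hochberg adjustment over all SPNCRNA pairs, 23 (4.59%) had an unadjusted p under 0.05, and the chi-square test called none either. Over all 1060 pairs 0.283% were called. The log2 ratio of lncRNA to sense gene in the 2 libraries had a Spearman's rho of 0.92 over the 504 members with at least 10 reads, a description in which both libraries share the same genes and lengths. At a median of 0 reads per member, a shift between the libraries would not be detectable for most of the pairs.

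A sense gene often carried more than 1 member. Of the 3065 sense genes, 1084 had at least 2, and in 147 of these at least 2 members were read in both libraries, in 398 a single one and in 539 none. The most members lay on mdn1, the gene of the ribosome assembly ATPase midasin, with 8 members that shared 2 and 5 reads while mdn1 had 434 and 440. On nuc1, the gene for the large subunit of RNA polymerase I, 7 members had no read, against 613 and 618 for nuc1. On brr2, the gene of a spliceosomal helicase, 6 members shared 10 and 8 reads. Members that share a sense gene share its values, and the medians of the pairs above count such a gene once per member.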

How the data were processed

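Direct RNA reads were base-called by the authors with dorado, set to super accuracy, and aligned by minimap2 with its splice preset. For the counter, the treatment of multiple alignments and the build, the sources used here give nothing. The deposited values are raw read counts per feature. Because the header is displaced by 1 cell, the values of replicate 1 carry the name of the length column. That column was treated as estimated counts as deposited, and all its values were whole. Of 4620 members, 4615 matched a RefSeq locus tag (ASM294v3), all with the same start and end, as did 3059 of the 3065 sense genes. Lengths are gene spans with introns.

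CPM used library totals with rRNA included, and CPM per kb the span. Log2 ratios add 0.5 reads. Features with at least 10 reads entered the binomial test, and pairs with 10 on each side Fisher's test, adjusted at 0.05 over the whole table. Intervals cover counting error only. Tests were checked on simulated data. Software was Python 3.11.15, scipy 1.17.1, pandas 2.3.3, R 4.3.3, edgeR 4.0.16 (TMM) and DESeq2 1.42.0 (size factors only), with both kinds of factor taken over features with at least 10 reads.

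The naming rule gave 50 members, of which the text describes part and gives the others by counts: the 10 highest by CPM per kb, the 10 highest by ratio to the sense gene among those with at least 20 reads and above it in both libraries, those called between libraries, those with at least 10 reads opposite genes of lists set by gene symbol, and those opposite the 5 most abundant sense genes. Lists were described by counts and medians beside the shares over all members, with no test. The members, lists and rules were chosen with earlier results of these data known. SPNCRNA.5535, SPNCRNA.2367, SPNCRNA.808 and the genes with most members were named after their values were seen. Neighbours on the same strand were listed from the deposited positions.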

Additional observations from a re-analysis of the deposited data

How the results depend on the processing

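The count of members detected was 1635 with at least 1 read in each library and 504 with at least 10 reads in sum, and it was 2214 to 2223 when either library was left out. The median log2 ratio of -5.10 became -6.63 with a pseudocount of 0.1, -4.42 with 1, -7.25 without division by length and -3.17 for pairs with at least 10 antisense reads. Leaving out a library gave -5.15 to -5.08. The 42 members above their sense gene became 25 without division by length, and 57 to 60 when a single library decided. Chosen after seeing the data, a limit to members wholly inside the sense gene left 13, and a limit to those with no same-strand coding feature within 250 nt on either side left 30. Members called between the libraries were 1, and 0 with TMM factors. The median level of 0.0656 CPM per kb became 0.167 with totals without rRNA and 0 to 0 in a single library. The sign of the median log2 ratio was the same in all its alternatives, while the direction of the calls over all features turned with the scaling, as given with the binomial test. Leaving out a library gives no value for the tests between libraries. No paired analysis was possible because both libraries belong to 1 group. With a median of 0 reads, depth limits nearly every member, and the cause of the differences between settings was not tested beyond their construction.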
